A study of Mus musculus with 12 samples.

Results

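Stattic was added to cultures that already held hemin and interleukin-10 (IL-10), and 3 libraries with stattic were compared with 3 libraries without it, 6 of the 12 libraries of the series. The cells were primary oligodendrocyte progenitor cells from the brain of wild-type mice, kept for 12 h with their treatment. Both groups compared received 50 µM hemin and 10 ng/mL IL-10, and the stattic group received 2.5 µM stattic in addition. The other 6 libraries came from cells given vehicle (DMSO) or 50 µM hemin alone, 3 each. The labels name no culture with stattic but without IL-10 or hemin, so an effect of stattic apart from IL-10 signalling cannot be told apart from one through it. The labels also do not say whether libraries of a group came from separate animals or cultures, and the p-values measure the spread between libraries, which may be technical. The comparison covered 13967 genes that passed a filter on low counts, of 18876 genes listed in any library.

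IL-10 binds a receptor made of the chains IL10RA and IL10RB, which activates the kinases JAK1 and TYK2. These phosphorylate the transcription factor STAT3, which then pairs through its SH2 domain, enters the nucleus and switches on genes such as Socs3. Stattic is a small molecule that targets the SH2 domain of STAT3 and blocks its pairing. Oligodendrocyte progenitors are the dividing cells that give rise to myelinating oligodendrocytes, and hemin is the iron-holding ring of haemoglobin that reaches brain cells after a bleed.

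The 6 libraries held between 9516155 and 10266653 expected counts. All 23 progenitor markers checked, among them Pdgfra, Cspg4, Olig2 and Sox10, had counts in at least 1 of the 6 libraries. The same held for the markers of the other cell types described below, so this does not tell cell types apart. Stattic library 3 stood apart from the rest. Ribosomal protein genes took 9.76% of its counts, against 3.66% to 6.56% in the other 5. When genes were split by length into 5 equal groups, the median of the shortest group lay 0.93 above the mean of the IL-10 libraries on the log2 scale in this library, and the medians of that group lay between -0.12 and 0.11 in the other 5. In the longest group its median was -0.75. The differences of many lists were small enough to turn with 1 library: without stattic library 3 the median of 15 of the 32 lists described below changed sign, and leaving out 1 of the other 5 libraries did so in 3 to 10 lists.

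**Figure D1:**
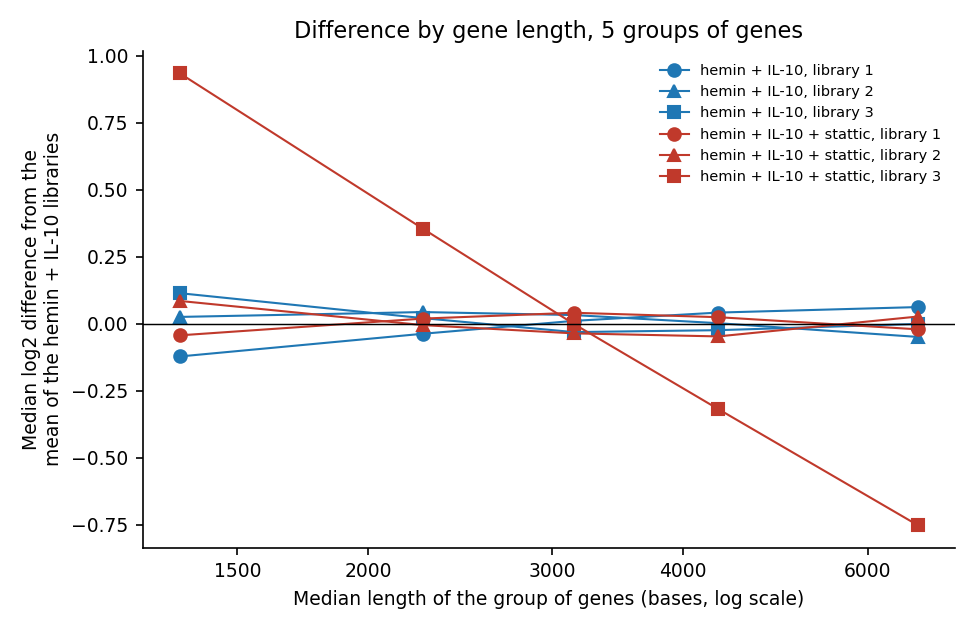
Median log2 difference of each of the 6 libraries from the mean of the hemin with IL-10 libraries (vertical axis) against the median length in bases of 5 equal groups of genes (horizontal axis, log scale). Stattic library 3 runs from 0.93 in the shortest genes to -0.75 in the longest, and the other 5 libraries stay between -0.12 and 0.11 in the shortest.

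No gene was called: 0 of 13967 genes, or 0.0%, had an adjusted p under 0.05 by edgeR's quasi-likelihood test, and the smallest adjusted p was 0.921. At an unadjusted p under 0.05 the same test gave 523 genes. Of these, 421 were higher with stattic (3.01% of the genes tested) and 102 lower (0.73%). DESeq2 gave 0 calls and 640 genes at an unadjusted p under 0.05, limma-voom 0 and 396, and limma on log2(FPKM + 1) 0 and 401. The excess of higher over lower genes moved with the scaling: scaled to library totals, 218 were higher and 180 lower. By limma on log2(FPKM + 1), which also differed in test, filter and unit, the counts were 203 and 198. Without stattic library 3 they were 203 and 232, and without stattic library 1 they were 1399 and 844, still with 0 genes called.

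The differences were small for most genes and their intervals wide. The median log2 difference (stattic minus hemin with IL-10) was 0.02, and 90% of the genes lay between -0.55 and 0.85. A difference of 2-fold or more was estimated for 468 genes in the higher and 97 in the lower direction. Among the 11199 genes whose mean was at least 5 CPM (counts scaled to a common library size), the 95% interval reached 0.67 to each side at the median. In 54.7% of them the interval lay wholly within a 2-fold difference either way. The 3 stattic libraries all lay above the 3 IL-10 libraries in 440 genes (3.15%) and all below them in 308 (2.21%).

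**Figure D2:**
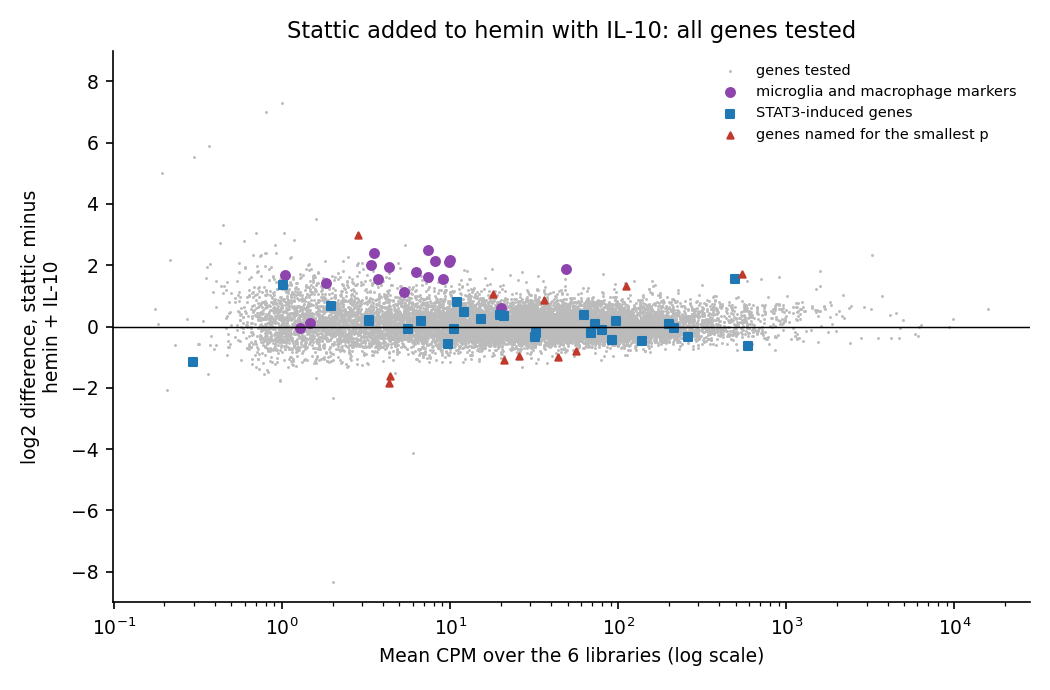
Each point is 1 of the 13967 genes tested, with its mean CPM over the 6 libraries on the horizontal axis (log scale) and its log2 difference, stattic minus hemin with IL-10, on the vertical axis. STAT3-induced genes (squares) lie around 0 with a median of 0.08, while microglia and macrophage markers (circles) have a median of 1.73. Triangles mark 11 genes named for the smallest p in either direction.

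None of the genes of the IL-10 receptor pathway tested was called with stattic. Stat3 itself was at 175, 190.2 and 178 CPM in the 3 IL-10 libraries and at 215, 185 and 185 with stattic. The log2 difference was 0.11 (SE 0.24, 95% interval -0.42 to 0.63), with an adjusted p of 0.948 by edgeR, and the groups overlapped. The receptor chain Il10ra was low, with 1.83, 0.842 and 0.909 CPM against 1.26, 1.68 and 1.20 with stattic. Il10rb, the chain shared with other cytokine receptors, was at 3.24, 4.95 and 3.23 CPM and 4.61, 4.29 and 4.68. Neither chain separated the groups, with log2 differences of 0.21 (95% interval -1.13 to 1.55) and 0.25 (-0.51 to 1.01). Of the kinases, Jak1 was at 218, 179 and 111 CPM against 224, 117 and 109, and Tyk2 at 16.0, 16.6 and 15.2 against 17.6, 13.9 and 10.3. Their log2 differences were -0.18 and -0.19, both within the spread of the libraries.

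Over the whole list of 25 receptor, kinase, STAT, phosphatase and PIAS genes, 23 were tested and 0 were called. 11 had a positive difference and 12 a negative one, with a median of -0.05 against 0.02 over all genes. Stat6, the STAT of IL-4 signalling, was the member with the smallest p, at 2.27, 1.47 and 1.62 CPM against 2.72, 3.56 and 3.84, and it was the 1 member (of 23) with all stattic libraries above the IL-10 libraries, against 3.15% of all genes. Its log2 difference was 0.91 (SE 0.47) with an unadjusted p of 0.0776, and the hemin mean was 5.21 CPM. Lifr, a chain of the leukaemia inhibitory factor receptor, was the 1 member with all stattic libraries below, against 2.21% of all genes, at 32.9, 32.1 and 37.4 CPM against 30.1, 31.8 and 28.2. Both shares are near those of all genes.

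The best known mRNA readout of STAT3 activity is Socs3, the feedback inhibitor of JAK kinases. The bases before its start hold a match to TTCNNNGAA, the spaced letters that STAT dimers bind. Among the STAT3-induced genes tested, 23 had a promoter sequence and 3 of them, Socs3, Fgl2 and Sbno2, had a match in the 250 bases before a start. This motif reads the same on both strands, so 1 search covers both. It was found in 7.02% of the 32851 promoter windows searched and in 7.11% of the 11076 tested genes with one. Windows of 1 chromosome were left out of the search. The windows with a match are shown here from RefSeq promoters on GRCm38.p6, 5′ to 3′ along the gene's strand, with the match in capitals, because these are the members with the letters a STAT dimer can read near their start. Sbno2 has 3 annotated starts, and 2 of them have a match.
Fgl2 chr5:21372423-21372672 (+ strand): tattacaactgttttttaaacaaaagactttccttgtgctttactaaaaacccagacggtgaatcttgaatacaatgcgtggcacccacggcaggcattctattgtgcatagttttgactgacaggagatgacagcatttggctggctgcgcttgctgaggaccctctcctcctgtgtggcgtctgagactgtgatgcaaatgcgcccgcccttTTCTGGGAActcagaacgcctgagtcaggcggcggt
Sbno2 chr10:80102703-80102952 (- strand): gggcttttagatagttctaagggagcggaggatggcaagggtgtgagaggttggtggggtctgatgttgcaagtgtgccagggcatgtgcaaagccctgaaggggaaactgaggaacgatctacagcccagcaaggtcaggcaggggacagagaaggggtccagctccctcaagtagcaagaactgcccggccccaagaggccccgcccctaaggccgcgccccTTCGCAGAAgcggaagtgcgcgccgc
Sbno2 chr10:80101188-80101437 (- strand): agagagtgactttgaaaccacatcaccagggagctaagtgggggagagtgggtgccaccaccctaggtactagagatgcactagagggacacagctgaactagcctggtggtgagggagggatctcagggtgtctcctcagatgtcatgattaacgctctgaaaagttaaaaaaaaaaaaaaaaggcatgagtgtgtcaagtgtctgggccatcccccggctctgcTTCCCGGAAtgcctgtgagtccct
Socs3 chr11:117969367-117969616 (- strand): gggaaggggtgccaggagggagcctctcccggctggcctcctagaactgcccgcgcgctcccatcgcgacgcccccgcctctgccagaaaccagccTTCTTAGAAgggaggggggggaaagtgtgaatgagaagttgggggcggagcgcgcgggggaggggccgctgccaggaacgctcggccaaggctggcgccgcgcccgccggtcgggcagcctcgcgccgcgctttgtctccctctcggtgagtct

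Socs3 was at 17.7, 26.7 and 10.9 CPM in the IL-10 libraries and at 28.1, 26.0 and 16.0 with stattic. The groups overlapped, and the mean with the STAT3 inhibitor was 23.3 CPM against 18.4 without it. The log2 difference was 0.34 (SE 0.34, 95% interval -0.40 to 1.08) with an adjusted p of 0.921 by edgeR. The means in hemin alone and in vehicle were 30.0 and 11.7 CPM. Sbno2, a corepressor gene known to respond to IL-10 in macrophages, was at 107, 86.3 and 58.4 CPM against 104, 72.6 and 55.5, a log2 difference of -0.12. Fgl2, a fibrinogen-like protein, was at 2.16, 2.00 and 0.404 CPM against 3.14, 2.83 and 1.20, a difference of 0.66 with an interval of -0.80 to 2.11. None of the 3 genes with the motif was called, and the groups overlapped in each.

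Genes with and without the motif were set side by side over all tested genes with a promoter window in the search. The median log2 difference was 0.01 over the 788 tested genes with a match and 0.02 over those without. An unadjusted p under 0.05 was found in 3.30% of the genes with a match and in 3.69% of those without. A match is a description of the letters in this window, and binding was not measured.

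Of 31 STAT3-induced genes listed, 28 were tested, 0 were called and 0 had an unadjusted p under 0.05, against 3.74% of all genes. 15 differences were positive and 13 negative, with a median of 0.08 and a range of -1.16 to 1.57. With the length trend taken out the median was -0.04, and without stattic library 3 it was -0.04. Junb, an AP-1 factor and an early IL-6 family target, was at 95.1, 102 and 74.6 CPM against 94.8, 83.0 and 130.4. Pim1, a survival kinase, was at 11.7, 12.3 and 8.79 against 10.9, 9.22 and 10.8. Both overlapped, with log2 differences of 0.18 and -0.08. The same held for Myc, at 0.07, and for Cebpb, a C/EBP factor of inflammation, at -0.20.

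Ccnd1, the G1 cyclin, was the 1 gene of that list in which all stattic libraries lay below all IL-10 libraries, and 1 of 28 is near the 2.21% of all genes. It was at 775, 686 and 709 CPM with hemin and IL-10 and at 672, 243 and 469.6 with stattic. The difference of -0.65 (SE 0.45, interval -1.63 to 0.33) had an unadjusted p of 0.176. The hemin libraries alone averaged 485 CPM. The 8 SOCS family genes divided 4 to 4 around 0, with a median of -0.03. Without stattic library 3, 7 of 8 were positive with a median of 0.11, and without stattic library 1 3 of 8 with -0.25.

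Gfap, an astrocyte filament gene and STAT3 target, had the largest positive difference of the list and also the widest spread. It was at 203, 534 and 15.9 CPM in the IL-10 libraries and 1564, 589 and 78.5 with stattic, and the groups overlapped. Its log2 difference was 1.57 with an interval of -1.48 to 4.62. Tnfaip3, the A20 inhibitor of NF-kB, was at 15.2, 13.5 and 6.26 CPM against 9.96, 8.90 and 4.80, with a difference of -0.56 and an unadjusted p of 0.201.

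**Figure D3:**
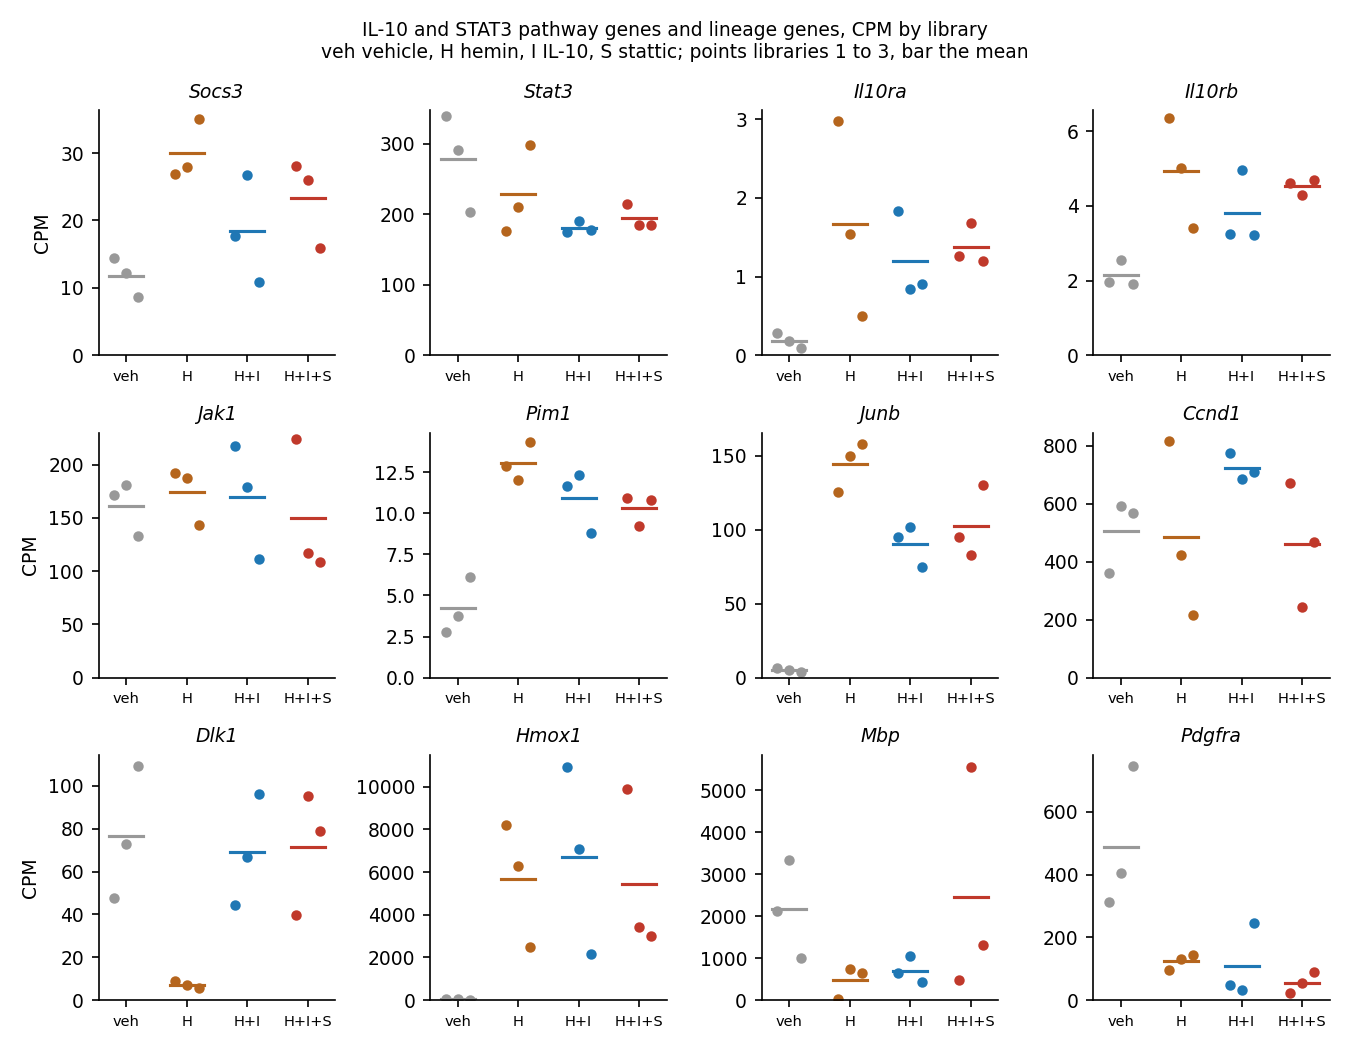
CPM (vertical axis, from 0, a scale per gene) of 12 pathway and lineage genes in each library of the 4 groups (horizontal axis), with points for libraries 1 to 3 and a bar for the mean. Socs3, Stat3 and Dlk1 overlap between hemin with IL-10 and hemin with IL-10 and stattic, while the Ccnd1 points with stattic lie below those without.

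Dlk1, a membrane protein of the Notch ligand family, was the gene with the smallest adjusted p when IL-10 was added to hemin, and its stattic libraries lay among the IL-10 libraries. It was at 44.5, 67.0 and 96.2 CPM with hemin and IL-10 and at 39.9, 95.1 and 78.9 with stattic, against a mean of 7.24 in hemin alone and 76.6 in vehicle. Stattic minus IL-10 gave a log2 difference of 0.04 (SE 0.38, interval -0.79 to 0.88). Against hemin alone, the IL-10 group differed by 3.26 (SE 0.43, adjusted p 0.0735 by edgeR) and the stattic group by 3.30 (SE 0.43, adjusted p 0.0655). These 2 comparisons share the hemin libraries, and neither passed the threshold. The lower bound of the stattic minus IL-10 interval was -0.79, a smaller step than the 3.26 between the IL-10 and hemin groups. Dlk1 was picked for that 3.26, from the same IL-10 libraries, and it was not called. Whether stattic reverses an effect of IL-10 on Dlk1 was therefore not tested.

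Genes of the heme response overlapped between the groups, with a wide spread in each. Hmox1, heme oxygenase 1, was at 10945, 7076 and 2164 CPM with hemin and IL-10 and at 9896, 3436 and 3029.6 with stattic, against 39.0 in vehicle. In both groups library 1 was the highest, and the log2 difference was -0.30 (interval -1.68 to 1.07). Slc7a11, the cystine importer, ran from 156 to 1524 CPM without stattic and from 89.8 to 1489 with it. Its difference of -0.41 had an interval of -2.50 to 1.69. Gpx4, the lipid peroxide reductase that guards against ferroptosis, was at 191, 227 and 165 CPM against 186, 172 and 380.0. Library 3 with stattic alone was high, and without it the Gpx4 difference was -0.13, against 0.34 with it. Acsl4, Tfrc and Fth1 had differences of -0.10, -0.09 and 0.09, and all overlapped.

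Of 30 heme and iron genes tested, 0 were called and the median was 0.09. Urod, an enzyme of heme synthesis, was at 16.6, 13.7 and 13.9 CPM against 18.2, 19.3 and 36.3 and did not overlap. Its difference of 0.74 (unadjusted p 0.0348) became 0.37 with the length trend taken out and 0.33 without stattic library 3. Alad, which acts earlier in the same pathway, was at 14.5, 22.3 and 30.2 against 18.7, 45.7 and 52.2. The 23 ferroptosis regulators had a median of 0.17 with 15 positive, and this was -0.07 with 8 positive without stattic library 3 and 0.02 with the length trend taken out. The 35 NRF2 targets had a median of -0.20, with 24 of them negative. The NRF2 median was 0.23 without IL-10 library 1 and -0.87 without stattic library 1, the libraries with the most Hmox1.

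The genes with the smallest p in the higher direction were named among genes whose groups did not overlap, and none passed the adjusted threshold. Plekhb1, a membrane protein with a pleckstrin homology domain, was at 46.4, 77.3 and 67.0 CPM without stattic and 91.6, 200.5 and 185 with it, a log2 difference of 1.32 (SE 0.31, 95% interval 0.64 to 2.00) with an unadjusted p of 0.00114. Hemin alone averaged 90.2 CPM, between the groups. Inpp5d, the inositol phosphatase SHIP1 of blood cells and microglia, was at 0.971, 0.421 and 0.505 CPM against 2.41, 7.96 and 4.80, a log2 difference of 2.98 (SE 0.76, 95% interval 1.33 to 4.63) with an unadjusted p of 0.00197. Its level in hemin alone averaged 3.26 CPM. Mgll, the lipase that breaks down the endocannabinoid 2-AG, was at 21.4, 27.8 and 27.8 CPM against 43.0, 44.5 and 54.0. The 3 libraries of each group lay close together, and the difference was 0.88 (SE 0.24, unadjusted p 0.00284). Vehicle cells had 73.7 CPM of Mgll and hemin cells 29.3.

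Aamdc was at 12.0, 11.6 and 11.3 CPM against 20.6, 19.3 and 33.8, a difference of 1.08 (SE 0.30). It is a short transcript, and with the length trend taken out the difference was 0.63. Lars2, the mitochondrial leucyl-tRNA synthetase, was at 297, 264 and 203 CPM against 711, 333 and 1454. The spread with stattic was large, and the difference was 1.71 (SE 0.49) over all libraries and 1.02 without stattic library 3.

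2 more genes were picked out after their values were seen. LOC118568312, an uncharacterised locus, was at 935, 1023 and 1276 CPM against 2354, 1425 and 12490.2, and its difference of 2.33 became 0.80 without stattic library 3. Ly6g5b, of the lymphocyte antigen 6 complex, had 0 counts in each IL-10 library and 13, 26 and 16 with stattic. Against a floor of 3 counts over the IL-10 group, the stattic group was 19.2-fold higher. This ratio leaves out the spread between libraries and is not a lower bound. Ly6g5b had a log2 difference of 7.31 with an interval of 3.01 to 11.6, and an adjusted p of 0.921 by edgeR. It also had 10 counts in hemin library 3 and 0 in the other hemin and vehicle libraries.

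**Figure D4:**
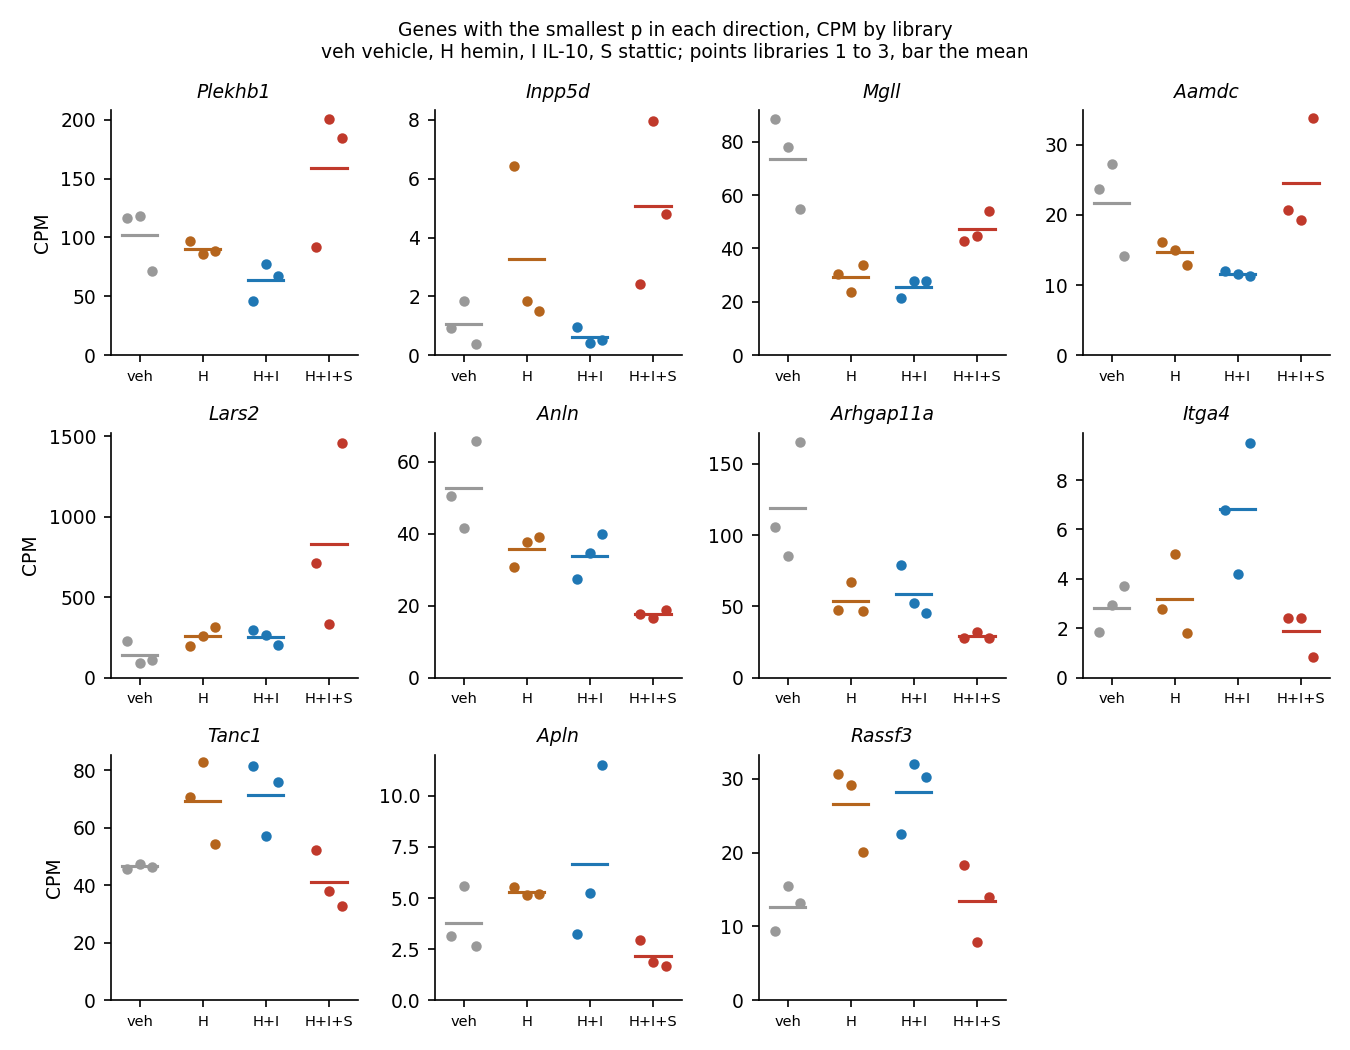
CPM (vertical axis, from 0, a scale per gene) of 11 genes named for the smallest p in the higher or lower direction, by library and group (horizontal axis), with points for libraries 1 to 3 and a bar for the mean. The genes were chosen among those whose points with stattic lie on 1 side of those with hemin and IL-10, and none of the 11 passed an adjusted p under 0.05.

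In the lower direction 2 of the 6 genes named for a small p belong to the machinery of cell division. The share of such genes among all genes was not counted. Anln, the scaffold of the ring that pinches dividing cells apart, was at 27.3, 34.6 and 39.8 CPM without stattic and 17.6, 16.4 and 18.8 with it, a log2 difference of -0.94 (SE 0.23, 95% interval -1.45 to -0.44) with an unadjusted p of 0.00144. Arhgap11a, a GTPase-activating protein of cytokinesis, was at 78.8, 52.5 and 45.3 CPM against 28.1, 32.1 and 27.8, a log2 difference of -1.005 (SE 0.29, 95% interval -1.63 to -0.38) with an unadjusted p of 0.00429. The stattic libraries lay close together in both genes. Both have long transcripts, and with the length trend taken out the differences were -0.78 and -0.84. Vehicle cells had 52.5 and 119 CPM of these genes, more than the mean of any group with hemin.

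Itga4, the integrin alpha 4 chain, was at 6.80, 4.21 and 9.49 CPM against 2.41, 2.41 and 0.840, a difference of -1.84 (SE 0.53). Tanc1, a scaffold protein, was at 81.4, 57.1 and 75.8 against 52.3, 38.1 and 32.9, a difference of -0.80 (SE 0.23). Both are long transcripts, and with the length trend taken out the values were -1.66 and -0.54. Apln, the peptide apelin, was at 3.24, 5.26 and 11.5 CPM against 2.93, 1.89 and 1.68. Rassf3, of the Ras association family, was at 22.6, 32.0 and 30.2 against 18.3, 7.86 and 14.0, and its hemin and vehicle means were 26.6 and 12.7 CPM. Their differences were -1.62 and -1.07.

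Microglia and macrophage markers stood higher with stattic than any other list of genes by their median. Of 19 markers, 18 were tested and 0 were called, 17 had a positive difference, and the median was 1.73 on the log2 scale against 0.02 over all genes. In 10 of the 18 all stattic libraries lay above all IL-10 libraries, against 3.15% of all genes tested, and 10 had an unadjusted p under 0.05. Laptm5, a lysosomal protein of blood-derived cells, was at 5.83, 2.95 and 2.22 CPM against 9.75, 23.9 and 14.2, a log2 difference of 2.12 (SE 0.62, 95% interval 0.77 to 3.47) with an unadjusted p of 0.0051. Lyz2, lysozyme, was at 27.2, 18.7 and 17.2 CPM against 64.3, 91.3 and 76.2. Its difference was 1.88 (SE 0.57, unadjusted p 0.00627), and its hemin and vehicle means were 75.6 and 16.5 CPM. Fcer1g, an adaptor of Fc receptors, was at 1.51, 0.948 and 0.909 CPM against 4.40, 6.81 and 6.60, a difference of 2.39 (SE 0.73).

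The complement genes C1qa, C1qb and C1qc, which microglia make in the brain, had differences of 2.17, 2.49 and 2.15. C1qb was at 4.10, 1.05 and 1.51 CPM against 6.92, 21.1 and 9.48, with stattic library 2 the highest. Tyrobp, Ctss, Itgam and Adgre1 also did not overlap, with 1.96, 1.55, 1.54 and 1.63. P2ry12 and Cd14 were near 0, at -0.06 and 0.13, and Aif1 was too low to test. Inpp5d and Ccl4, a chemokine at 0.324, 0.316 and 0.303 CPM against 1.57, 1.15 and 0.600, are not in the marker list. Ccl4 was low, and it was named as the member with the smallest p of the inflammatory and NF-kB targets. Of the 22 such targets tested, 14 had a negative difference.

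Summed over the 19 markers, the level was 105, 62.0 and 56.0 CPM in the IL-10 libraries and 173, 328 and 198 with stattic. The groups did not overlap, and the two-sided exact permutation p of 0.1 is the smallest that 3 against 3 can give (0.6 adjusted over 6 marker lists). The hemin libraries had 429, 156 and 113 CPM, on both sides of the stattic libraries, and the vehicle libraries 72.2, 62.9 and 17.5. The sum was 56.0 to 328 CPM over the 6 libraries, and no marker was at 0 in all of them. In bulk libraries more cells of a type and more RNA per cell cannot be told apart. The median was 1.59 with the length trend taken out, 1.85 without stattic library 3 and 1.38 without stattic library 2. Inpp5d and Ctsz, which such cells also express, were named for a small p, as was Ccl4. Inpp5d was named only among genes whose groups did not overlap. That Inpp5d, Ctsz and Ccl4 were higher in every stattic library is therefore no separate evidence. The part of these cells in those differences was not tested.

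**Figure D5:**
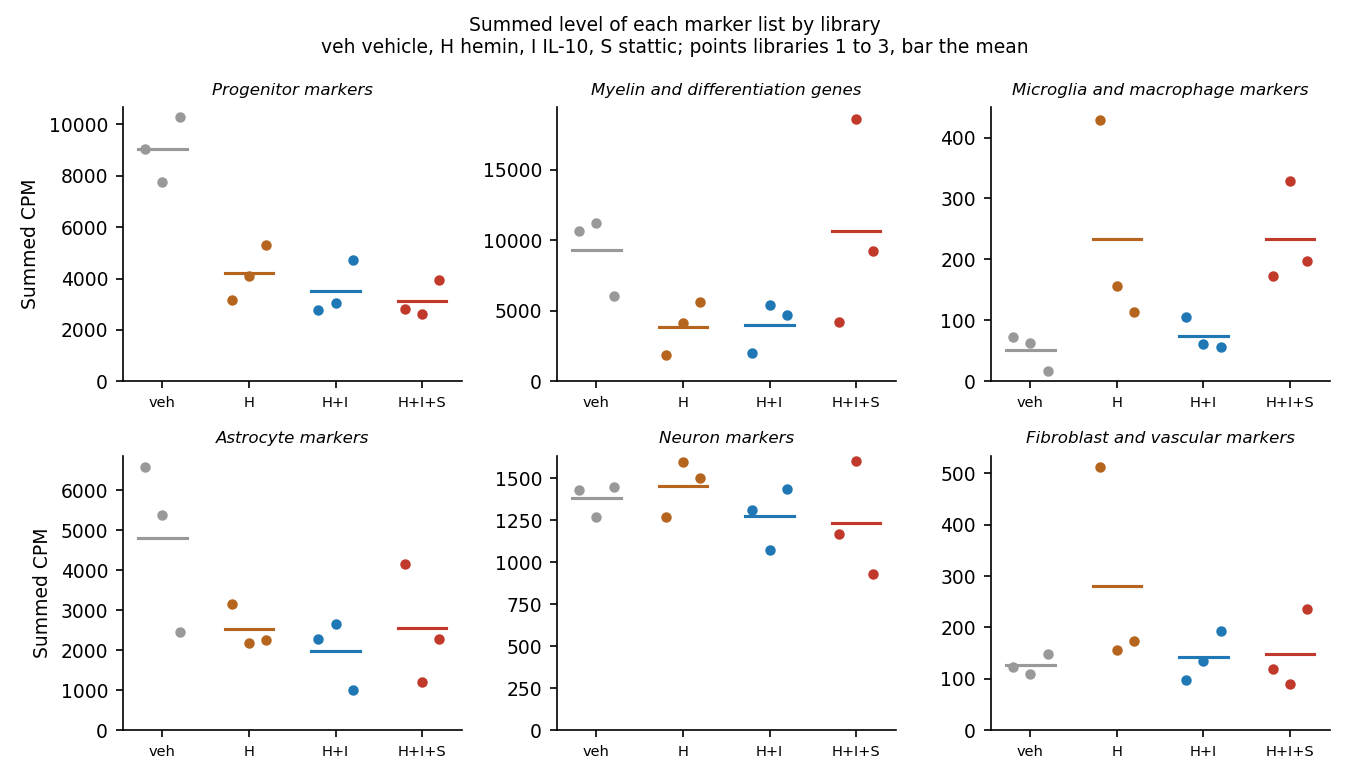
Summed CPM (vertical axis, from 0) of 6 marker lists in each library of the 4 groups (horizontal axis), with points for libraries 1 to 3 and a bar for the mean. Microglia and macrophage markers with stattic, from 173 to 328 CPM, lie above those with hemin and IL-10, from 56.0 to 105, and the other 5 lists overlap.

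Genes of myelin and oligodendrocyte differentiation were also positive as a list, with much of the height in 1 library. All 24 of the 27 genes that could be tested had a positive difference, 0 were called, and the median was 1.21. Mbp, myelin basic protein, was at 637, 1046 and 429 CPM without stattic and at 483, 5564 and 1304 with it. Stattic library 2 was far above the others in Mbp and the groups overlapped, with a difference of 1.80 (SE 1.04). Cnp, an early myelin enzyme, was at 116, 463 and 490.4 CPM against 412, 1508 and 1252, with an unadjusted p of 0.0165. Sirt2, a deacetylase abundant in oligodendrocytes, was at 346, 1232 and 1162 against 1027, 3305 and 2503, with an unadjusted p of 0.0283.

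For Cnp and Sirt2 the differences were 1.57 and 1.32, and IL-10 library 1 was far below its 2 partners in both. Enpp6, a marker of newly forming oligodendrocytes, was the 1 member of 24 whose groups did not overlap, near the 3.15% of all genes with stattic higher, at 26.3, 140.5 and 110.0 CPM against 141, 388 and 163. Without stattic library 2 the list median was 0.38 and 16 of 25 tested members were positive. Without IL-10 library 1 it was 0.88. The summed level was 1987, 5384 and 4690.3 CPM without stattic and 4209.5, 18622 and 9243 with it, and the groups overlapped, with an exact permutation p of 0.3.

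Progenitor markers as a list did not separate the groups, with 11 positive and 12 negative differences and a median of -0.17. The median moved with single libraries. It was 0.49 without IL-10 library 3, with 15 positive and 8 negative, and -0.56 without stattic library 3, with 6 and 17. Their summed level was 2782, 3037 and 4736 CPM without stattic and 2805, 2633 and 3958 with it (exact permutation p of 0.6). Olig2, the lineage factor, was at 139, 115 and 114 CPM against 93.5, 23.1 and 73.9. Ptprz1, a receptor phosphatase of progenitors, was at 998, 960.0 and 1293 against 829.8, 391 and 678. All stattic libraries lay below in both, against 2.21% of all genes, with differences of -0.95 (SE 0.47) and -0.78 (SE 0.31). Ptprz1 has a long transcript, and with the length trend taken out its difference was -0.47. Pdgfra, the growth factor receptor that defines the stage, was at 47.8, 31.1 and 246 CPM against 22.0, 54.4 and 90.1. IL-10 library 3 held most of it, and without that library the sign turned to 0.49. Sox10, the factor of the whole lineage, was at 15.1, 47.5 and 109 CPM against 30.6, 129.6 and 238.

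Cell division genes had 22 of 33 differences below 0 and a median of -0.11. Cenpf and Cenpe, which work at the kinetochore, were at 45.4, 48.4 and 63.0 and 31.4, 34.7 and 68.1 CPM without stattic. With stattic they were at 11.3, 34.1 and 22.9 and 10.6, 28.8 and 20.0, below the IL-10 libraries in every case. The differences were -1.20 (unadjusted p 0.023) and -1.17 (unadjusted p 0.0287), and -0.85 and -0.87 with the length trend taken out. Both transcripts are long. Aurka, a mitotic kinase with a short transcript, was at 24.1, 24.6 and 25.2 against 10.3, 12.0 and 28.6, with stattic library 3 above the IL-10 libraries and the other 2 below. Without stattic library 3 the list median was -0.77 and 32 of 33 genes were negative. Without stattic library 1 it was 0.14.

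Markers of other cell types overlapped between the groups in their sums. Astrocyte markers summed to 2288, 2651 and 1012 CPM without stattic and 4157, 1196 and 2277 with it, and neuron markers to 1309, 1074 and 1434 and 1169, 1600.1 and 930.4. Syt1, a synaptic vesicle protein, was at 7.01, 7.58 and 5.55 CPM against 19.9, 23.7 and 6.72, and stattic library 3 lay among the IL-10 libraries. In 2 of the 16 neuron markers all stattic libraries lay above, against 3.15% of all genes. Gad1, which makes the transmitter GABA, was at 4.86, 9.58 and 11.9 CPM against 12.7, 14.6 and 17.9, and Stmn2, a protein of growing axons, at 4.86, 13.9 and 6.26 against 17.0, 23.3 and 16.7. Their differences were 0.77 and 1.19, with unadjusted p of 0.0866 and 0.111. Fibroblast and vascular markers summed to 97.2, 134 and 194 and 119.7, 89.6 and 235 CPM. The medians of the 3 lists were 0.14, 0.48 and 0.36, and 0 genes were called in any. Without stattic library 2 the neuron median was 0.03, without stattic library 3 the fibroblast and vascular median was -0.53, and without stattic library 1 the astrocyte median was -0.23.

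The lists of short housekeeping genes followed the length trend of stattic library 3. Their reads can be shared with near-identical copies elsewhere in the genome, and how these were counted is not given. All 27 ribosomal protein genes had a positive difference, with a median of 0.58, which was -0.02 without that library and 0.04 with the length trend taken out. Rpl27 was the member with the smallest p, at 178, 236 and 224 CPM against 298, 328 and 503, and its difference of 0.82 became 0.38 with the length trend taken out. Subunits of the respiratory chain were positive in 23 of 26 genes with a median of 0.44, and this was -0.14 without stattic library 3. By length group over all genes, the median difference went from 0.39 in the shortest group (median 1322 bases) to -0.21 in the longest (6701.5 bases). The shortest group held 234 of the 421 genes that were higher at an unadjusted p under 0.05.

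Cholesterol synthesis genes were positive in 24 of 25, with a median of 0.68. Mvd, an enzyme of the mevalonate pathway, was at 25.3, 58.4 and 96.7 CPM against 49.6, 105 and 327, and Fdft1, squalene synthase, at 57.4, 173 and 299.7 against 141, 296 and 930.4. Stattic library 3 was the highest and IL-10 library 1 the lowest in both, and the groups overlapped. The median was 0.06 without stattic library 3 and 0.52 with the length trend taken out. Elovl1, which lengthens fatty acids, was at 44.2, 47.7 and 51.6 CPM against 53.2, 63.9 and 95.8 and did not overlap (difference 0.57, unadjusted p 0.0451). Without stattic library 3 its difference was 0.28. Prkaa2, a catalytic subunit of AMPK, was at 57.3, 41.9 and 34.0 against 45.5, 14.3 and 14.0. The 21 genes of AMPK and fatty acid synthesis had a median of 0.07, and -0.13 without stattic library 3.

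Stress response lists lay mostly below 0, and for the ATF4 and p53 lists the sign of the median turned without IL-10 library 1. The integrated stress response, which ATF4 drives, was negative in 28 of 30 genes with a median of -0.36 and 0 called. Without IL-10 library 1 the median was 0.04 and 9 of 30 were negative. As deviations from each gene's mean over the 6 libraries, the list median was 0.85, 0.18 and -0.49 in IL-10 libraries 1 to 3. With stattic it was 0.36, -0.15 and -0.65, lower at each library number, though the numbers were not treated as pairs. Pck2, the mitochondrial PEP carboxykinase, was at 64.1, 35.3 and 22.3 CPM against 34.7, 9.53 and 16.2, and Wars, a tRNA synthetase, at 356, 206 and 146 against 245, 119 and 135. In both, IL-10 library 1 was the highest of the 6. The p53 targets had 19 of 24 genes negative and a median of -0.34, which was 0.06 without IL-10 library 1. Their median deviations by library were 1.08, 0.45 and -0.91 without stattic and 0.73, -0.15 and -0.92 with it. Sesn2, a stress-induced sestrin, was at 612, 384 and 140.2 CPM against 376, 259.6 and 122. Gadd45g, the member with the smallest p, was at 149, 128 and 72.6 against 165, 162 and 200.0, without overlap (difference 0.59), though it is short and had 0.23 with the length trend taken out.

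Heat shock genes were negative in 18 of 21, with a median of -0.29, and -0.10 without stattic library 3. Hspb1, the small chaperone HSP27, was at 44.9, 35.6 and 32.3 CPM against 32.2, 14.3 and 28.9, and all stattic libraries lay below the IL-10 libraries by a narrow margin. Hspd1, the mitochondrial chaperonin, was at 1749, 1585 and 1035 against 1471, 1158 and 541. The unfolded protein response list had a median of -0.12 and the immediate early genes one of -0.12, each with 0 genes at an unadjusted p under 0.05. Hypoxia and glycolysis genes had a median of 0.08. Bnip3, a mitophagy receptor, was the member with the smallest p, at 24.8, 31.4 and 27.3 CPM against 38.5, 41.1 and 49.6. Its difference was 0.63 (SE 0.20, unadjusted p 0.00771), and 0.41 with the length trend taken out.

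Immune genes outside the microglia list had medians near that of all genes. Interferon-stimulated genes had a median of -0.02 over 17 tested, and inflammatory and NF-kB targets -0.08 over 22. Mx2, an antiviral GTPase, was at 7.55, 14.1 and 13.1 CPM against 13.2, 33.3 and 26.3, a difference of 1.06 with an unadjusted p of 0.018, and Irf1, an interferon regulatory factor, at 5.72, 8.11 and 6.36 against 9.33, 4.92 and 12.2. Lysosome and autophagy genes had a median of 0.22. Ctsz, a lysosomal cathepsin, was at 18.2, 24.0 and 17.9 CPM without stattic and at 39.4, 37.4 and 45.1 with it, without overlap, and its unadjusted p was 0.0431. Ctsb also did not overlap.

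Of the Notch and WNT genes, 3 of 24 had all stattic libraries below, against 2.21% of all genes, and the list median was 0.10. Jag1, a Notch ligand, was at 72.4, 68.5 and 62.8 CPM against 54.5, 28.6 and 35.9, with a difference of -0.78 (SE 0.34, unadjusted p 0.0388). Wnt5a was at 8.63, 11.3 and 8.99 against 8.07, 5.13 and 5.28, and Fzd1, a WNT receptor, at 36.8, 35.9 and 35.3 against 32.5, 14.9 and 29.0. The differences of Wnt5a and Fzd1 were -0.64 and -0.50. With the length trend taken out, Jag1, Wnt5a and Fzd1 had -0.59, -0.50 and -0.38. Their transcripts are long (5584, 5138 and 4395 bases). Of the 308 genes with all stattic libraries below, the longest length group held 103 and the next longest 101. Col5a1, a fibrillar collagen, was at 58.9, 58.6 and 58.6 CPM against 42.8, 33.0 and 46.5. The IL-10 libraries agreed closely in Col5a1 and the difference was -0.53 (unadjusted p 0.044). Its transcript is long, and with the length trend taken out the difference was -0.16. Col19a1, the gene with the most counts in every library, was at 11452, 14605 and 12151 CPM against 13413, 15661 and 27852, high in stattic library 3.

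The remaining lists had medians between -0.20 and 0.07 and 0 genes called. They were 28 matrix and protease genes (0.07), 24 growth factors and receptors (-0.10), 22 BMP, TGF-beta and ID genes (-0.15), 26 BCL2 family and cell death genes (-0.20), and 10 metallothionein and zinc genes (-0.14). Without stattic library 3 the matrix and protease median was -0.34. Xiap, an inhibitor of caspases, was at 65.9, 71.5 and 62.4 CPM against 63.5, 49.4 and 29.2, and Egfr at 138, 118 and 173 against 105, 38.2 and 137. Slc30a10, a manganese exporter, had 0 in all IL-10 libraries and 1.36, 0.838 and 0 CPM with stattic, 1 of which was also 0. Its means in hemin alone and in vehicle were higher, at 3.17 and 4.01 CPM.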

How the data were processed

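RNA from primary mouse oligodendrocyte progenitor cells was sequenced in 12 libraries, 3 for each of 4 groups, and sample groups were taken from the titles. Each deposited table lists, per the file headers, the length, expected count and FPKM of every gene with a value, as the authors made them. The submitters' processing notes name RSEM, Bowtie and Bowtie2, and also CASAVA, HISAT, TopHat, StringTie and Cufflinks, and do not give the role of each. The genome build, and whether counting used strand, are not given in the sources used here. Per the labels' protocols the libraries were made with dUTP.

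Expected counts as deposited were joined on gene symbol, with an absent gene taken as 0, and rounded to whole numbers. All 18876 symbols were kept, and 13967 passed edgeR's filterByExpr. edgeR 4.0.16 (R 4.3.3) was run on all 12 libraries with TMM scaling, 1 mean per group and a robust quasi-likelihood fit, and p-values were adjusted by Benjamini-Hochberg over all genes tested, with 0.05 as the threshold. CPM are counts scaled to a common TMM-adjusted library size. The authors' FPKM values entered only as an alternative, as log2(FPKM + 1) or log2(FPKM + 0.1) in limma 3.58.1 for genes with a mean of at least 0.5. The other alternatives were DESeq2 1.42.0, limma-voom, other scalings, no filter, only the 6 libraries, a replicate block, a correction for transcript length by a per-library trend, and each library left out. The scripts were tested on simulated data. Promoters came from RefSeq on GRCm38.p6, matched by symbol, with 1 chromosome left out.

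The 32 gene lists and the genes described were chosen with earlier results of these data known. Named genes were the 6 with the smallest p in each direction whose groups do not overlap and whose higher mean is at least 5 CPM, without predicted gene models, in each list the members with the lowest p, at most 3, and a fixed set of pathway, heme and lineage genes. Some of these genes are not reported here. Of the rest, 72 are given in the text, with 15 further genes and the 2 described as such in the text that were chosen after their values were seen.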

Additional observations from a re-analysis of the deposited data

How the results depend on the processing

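No gene was called under any of the 26 alternatives, so no call was lost or gained. The smallest adjusted p over them was 0.088, for Ly6g5b by limma-voom with quality weights, and 0.338 by DESeq2. The number of genes at an unadjusted p under 0.05, 523 by edgeR, was 181 when only the 6 libraries were fitted, 600 with no filter on low counts and 384 with the length trend taken out. Leaving out each of the 12 libraries in turn gave 217 (without IL-10 library 1) to 2243 (without stattic library 1). It also gave 879 without IL-10 library 3 and 829 without stattic library 2. The 95% interval reached 0.75 to each side at the median over all genes and 0.67 over those of at least 5 CPM, and the part of depth in its width was not tested.

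The labels do not say what a replicate number shares, and the numbers were not treated as pairs in the main fit. Deviations of same-numbered libraries correlated at 0.73, -0.08 and 0.51 over 11199 genes. IL-10 library 1 with stattic library 3 gave -0.50, and IL-10 library 3 with stattic library 1 gave -0.75. IL-10 library 2 correlated best with stattic library 1 (0.32). Deviations within a group sum to 0, so these correlations depend on each other and cannot decide whether the numbers are pairs. With the replicate number as a block, edgeR called 0 genes and gave 847 at an unadjusted p under 0.05, against 523 without the block. With only the 6 libraries it gave 774 with the block and 181 without.

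Of 89 genes with values in the text, 69 kept the sign of their difference under every alternative that gave a value and 20 did not. None of the 20 was called, and the cause was not tested. List medians moved by more than the spread between libraries in 27 of 832 list and alternative pairs, over 11 lists. With the length trend taken out, the log2 difference was 0.064 for Acsl4, -0.066 for Cd14, -0.15 for Dlk1, -0.24 for Fth1, -0.18 for Gpx4, -0.042 for Junb, 0.12 for Lifr, -0.036 for Myc and 0.086 for Tfrc. With the replicate block and the length trend taken out it was 0.048 for Acsl4, -0.19 for Cd14, -0.15 for Dlk1, -0.28 for Fth1, -0.16 for Gpx4, -0.033 for Junb, 0.092 for Lifr, -0.042 for Myc and 0.12 for Tfrc. By limma-voom with quality weights it was -0.032 for Cd14, -0.019 for Dlk1, -0.24 for Fth1, -0.17 for Gpx4, -0.039 for Il10rb, -0.11 for Irf1, -0.099 for Junb, -0.013 for Myc and 0.078 for Pdgfra. On log2(FPKM + 1) it was -0.0046 for Cd14, -0.074 for Dlk1, -0.027 for Fth1, -0.035 for Myc and -0.0059 for Stat3. On log2(FPKM + 0.1) it was -0.041 for Cd14, -0.077 for Dlk1, -0.027 for Fth1, -0.036 for Myc and -0.0063 for Stat3. Scaled to library totals it was -0.070 for Dlk1, -0.0098 for Fth1, -0.039 for Myc and -0.10 for summed Fibroblast and vascular markers. Without hemin library 1 and stattic library 3 it was -0.047 for Dlk1, -0.13 for Gpx4, -0.037 for Junb, -0.038 for Myc, 0.35 for P2ry12, 0.058 for Sbno2 and 0.095 for Slc7a11. By limma-voom without weights it was 0.064 for P2ry12. Leaving out 1 library gave ranges of -0.23 to 0.38 for Cd14, -0.58 to 0.15 for Cebpb, -0.22 to 0.35 for Dlk1, -0.24 to 0.40 for Fth1, -0.13 to 0.54 for Gpx4, -1.06 to 0.24 for Hmox1, -0.0061 to 0.65 for Il10ra, -0.59 to 0.046 for Jak1, -0.037 to 0.32 for Junb, -0.039 to 0.16 for Myc, -0.57 to 0.54 for P2ry12, -1.51 to 0.49 for Pdgfra, -0.39 to 0.093 for Sbno2, -1.91 to 0.30 for Slc7a11 and -0.33 to 0.27 for Tfrc. The log2 ratios of the summed markers ranged from -0.37 to 0.11 for summed Progenitor markers, -0.19 to 0.70 for summed Astrocyte markers, -0.28 to 0.12 for summed Neuron markers and -0.44 to 0.36 for summed Fibroblast and vascular markers.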
